A study of Mus musculus with 6 samples.

Results

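Lungs of mice that carried a mutant BMPR2 transgene and had a high right ventricular systolic pressure (RVSP) were compared with lungs of control mice that carried only the transactivator. The comparison took 4 of the series' 6 arrays, chosen by their titles: 2 R899X high RVSP mice and 2 control mice, each hybridised separately as total RNA from whole lung homogenate on an Affymetrix mouse whole-genome array. All were female FVB/N mice by the series' design text; the label of control 1 itself names no sex. The controls carried SM22-rtTA, a transactivator that needs doxycycline and is driven by the promoter of SM22 (Tagln), a smooth muscle gene. The R899X mice carried SM22-rtTA and a TetO7-BMPR2-R899X transgene switched on by it, and were heterozygous for both. Doxycycline feeding began in all mice, controls included, at an age of 4 weeks and went on for 9 weeks, until death at 13 weeks. Heparin was given before death and the right lung was flushed with saline before RNA was made. The labels give the pressure only as substantially raised, without a value. The remaining 2 arrays, of R899X mice with a near normal RVSP, enter through the shared estimate of the spread and where their values are named.

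BMPR2 is a type II receptor for bone morphogenetic proteins (BMPs). Ligand brings it together with a type I receptor, which phosphorylates Smad1, Smad5 and Smad9, and these induce genes such as Id1 and Id3. Mutations that impair BMPR2 cause heritable pulmonary arterial hypertension, in which small lung arteries become muscular and narrow. R899X is a stop mutation that removes part of the long cytoplasmic tail. A transgene under the SM22 promoter acts in smooth muscle, which is a small part of whole lung, so that a change in one cell type is diluted in homogenate. In such bulk RNA, fewer cells of a type and less RNA per cell cannot be told apart.

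The deposited values were linear intensities with a common trimmed mean, and array medians lay between 128 and 141. All values below are these intensities or differences of log2(intensity + 16), high RVSP minus control, with the standard error (SE) from limma; folds of dim probe sets are understated on that scale. The typical distance between arrays, as the root mean square of log2 differences over 45037 probe sets, was 0.61 between the controls and 0.49 between the high RVSP mice. Control 2 lay at 0.50 and 0.52 from the high RVSP mice, nearer to them than to control 1, which stood apart at 0.60 and 0.63. Control 1 also had the highest 3'/5' ratio of the beta-actin control probe sets, 1.89 against 1.27 to 1.45 in the other 3 mice. The same ratio for Gapdh was 0.973 and 1.03 in the controls and 0.721 and 0.740 in the high RVSP mice, so that it separated the groups; its part in the results below was not tested. List medians are given without control 1, or another mouse, where that turned or clearly moved them. Defining lung markers were bright in all 4 mice. Surfactant protein C (Sftpc) lay between 26212 and 40876, the alveolar type 1 cell receptor Ager between 24227 and 33249 and the club cell secretoglobin Scgb1a1 between 33258 and 51443. The female transcript Xist lay between 4646 and 7705 in its brightest probe set, and the highest value of any probe set of Y-linked Uty, Kdm5d or Eif2s3y was 38.8.

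Bmpr2 itself was read by 3 probe sets. The brightest gave 19768 and 15872 in the controls and 17087 and 15398 in the high RVSP mice, a difference of -0.13 ± 0.19 in which the groups overlapped. A second gave 436 and 2047 in the controls and 1928 and 2170.1 in the high RVSP mice, 1.09 ± 0.69. Of these 4 mice only control 1 was low on it, while the R899X normal RVSP mice were split at 657 and 1987. The third differed by -0.03 ± 0.22. No source used here says which of them would read the transgene's RNA, and none serves as a check on genotype. Tagln, whose promoter drives the transactivator, lay between 4115 and 4739 in these mice (-0.06 ± 0.17).

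No probe set separated the groups after adjustment. In limma 0 of 45037 probe sets (0% called) had a Benjamini-Hochberg adjusted p under 0.05, and the smallest adjusted p was 0.916. An ordinary linear model without moderation also called 0. At an unadjusted p under 0.05, 2393 probe sets passed in limma (5.31%) and 2335 in the ordinary linear model. Of the limma set, 1317 were higher (2.92%) and 1076 lower (2.39%). The median 95% confidence interval, not adjusted for the number of probe sets, reached 0.75 to each side, which limits what a typical probe set could show. An exact permutation test of 2 mice against 2 cannot reach a p under 0.05. Every gene below therefore has an adjusted p of 0.916 or more, and "higher" and "lower" state the direction of measured values, not a call. Both high RVSP mice lay above both controls for 7746 probe sets (17.2%) and below both for 8300 (18.4%), 35.6% in all.

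The SD over probe sets was 0.41 for the difference of group means, 0.61 for control 1 minus control 2 and 0.49 for the high RVSP mice against each other. A difference of means of 2 mice varies less than a difference of single mice. The 0.41 can therefore not be set directly against the other SDs. Among 25037 probe sets with a mean intensity of at least 100, 249 were at least 2-fold higher in the high RVSP mice and 81 at least 2-fold lower. Of the same probe sets, 1013 differed by at least 2-fold between the controls and 279 between the high RVSP mice. These within-group counts are again differences of single mice and not of group means.

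The largest separated differences were single probe sets of genes of unrelated function. Tmem87a, a Golgi membrane protein, gave 65.1 and 65.4 in the controls and 725 and 713 in the high RVSP mice, a difference of 3.18 ± 0.71. It was the only probe set of its gene, and the R899X normal RVSP mice gave 708 and 93.5, so that 1 of them lay with the high RVSP mice and the other near the controls. Oxtr, the oxytocin receptor, gave 11.4 and 18.5 in the controls and 82.2 and 135 in the high RVSP mice (1.99 ± 0.38). Here both R899X normal RVSP mice, at 11.7 and 14.7, lay with the controls, while the other probe set of Oxtr differed by -0.98. Pign, an enzyme of the glycosylphosphatidylinositol anchor pathway, gave 5.92 and 15.7 in the controls and 102 and 116 in the high RVSP mice (2.24 ± 0.36). Its 4 other probe sets were higher by 0.13 to 0.29, none with an unadjusted p under 0.05. Clic5, a chloride intracellular channel protein of alveolar type 1 cells, gave 209 and 238 in the controls and 736 and 961 in the high RVSP mice (1.84 ± 0.43). Its 3 other probe sets differed by -0.07 to 0.91. The remaining 8 of the 12 largest higher differences were Norad (2.10), Uhmk1 (1.90), Wdfy1 (1.87), the immunoglobulin kappa probe set Igk (1.71), the focal adhesion protein Zyx (1.62), the growth factor Nrg1 (1.61), the antizyme inhibitor Azin1 (1.59) and the kinase Wnk1 (1.56).

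Among the lower probe sets Ankrd63 gave 435 and 721 in the controls against 175 and 148 in the high RVSP mice, a difference of -1.71 ± 0.27. The R899X normal RVSP mice lay between the groups at 294 and 338. Sfrp5, a secreted Wnt antagonist, gave 132 and 104 in the controls against 48.9 and 38.7 in the high RVSP mice (-1.16 ± 0.32). The R899X normal RVSP mice, at 91.8 and 102, lay below the controls and above the high RVSP mice, and its other probe set differed by 0.04. Kazn, a protein of cell junctions, gave 217 and 221 in the controls and 104 and 108 in the high RVSP mice (-0.94 ± 0.26). Its 2 other probe sets were lower by less, with differences of -0.30 and -0.13. The other lower probe sets were Tnrc18 (-1.98), Lrtm2 (-1.84), the ciliary gene Cfap61 (-1.66), Arhgef40 (-1.43), the autophagy kinase Ulk2 (-1.24), Cplx1 (-1.23), the calcium channel subunit Cacna2d4 (-1.21), the kinesin Kif17 (-1.20) and Trp53bp1 (-1.05), a DNA repair factor. These 24 were taken from 201 eligible higher and 35 eligible lower probe sets. Of the 24 genes, 20 had other probe sets: for 5 all of these went the same way, and for 15 at least 1 went the opposite way.

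**Figure D1:**
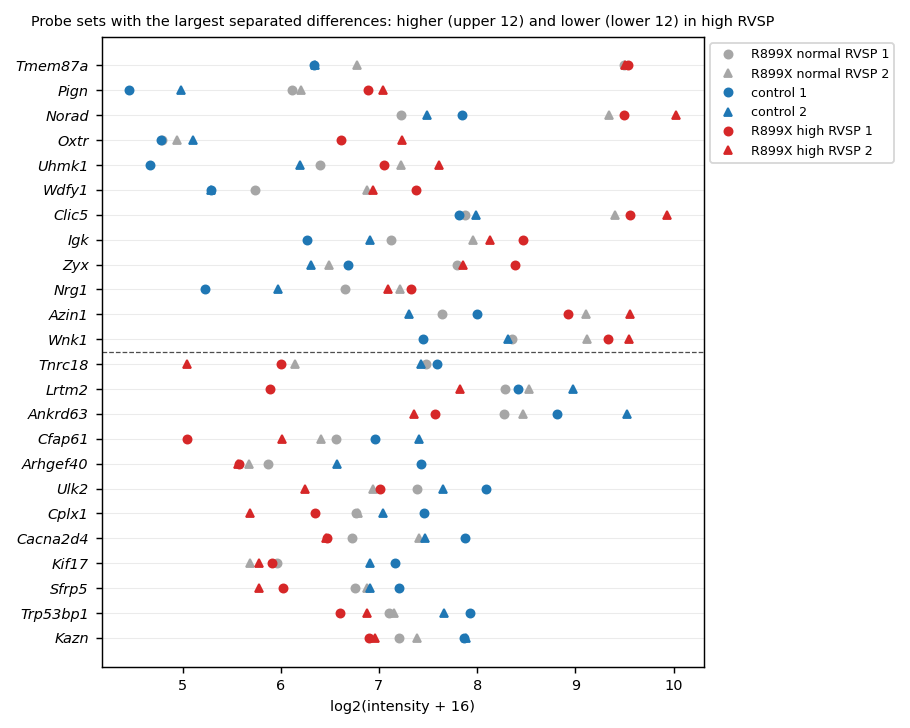
Log2(intensity + 16) of the 12 largest higher and 12 largest lower probe sets that separated the groups, 1 row per gene, with 1 point per mouse: control (blue), R899X high RVSP (red) and R899X normal RVSP (grey). Red and blue do not overlap in any row because rows were chosen that way; the grey points lie with the controls for Oxtr, and apart from each other, 708 against 93.5 in intensity, for Tmem87a.

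The higher probe sets were unevenly spread over the kinds of probe set, a pattern noticed after the values were seen. Each gene was represented by its brightest probe set, and the other probe sets of a gene with several were counted apart. An unadjusted p under 0.05 with a higher value was found for 245 of 18193 brightest probe sets (1.35%) but for 935 of 16752 other probe sets (5.58%). For lower values the shares were 368 (2.02%) and 315 (1.88%). The other probe sets were dimmer, with a median intensity of 133 against 292, but the imbalance was also there among brighter probe sets. With a mean of at least 100, 197 of 9457 other probe sets were at least 2-fold higher and 15 at least 2-fold lower, while 27 and 26 of 11931 brightest probe sets were. More other probe sets were higher than lower without any 1 of the 4 mice too. Without control 1, 196 other probe sets were higher and 21 lower, and without control 2, 556 and 81. Without the first high RVSP mouse the counts were 317 and 58, and without the second, 173 and 20. The same kind of probe set also separated the controls from each other, with 373 of 9457 at least 2-fold lower in control 1 than in control 2 and 127 higher, against 177 lower and 104 higher of 11931 brightest ones. Between the high RVSP mice the counts were 54 higher and 42 lower in the first. Of the 4 mice control 1 had the highest actin 3'/5' ratio and control 2 the next, at 1.45, and the Gapdh ratio was higher in both controls than in both high RVSP mice; the part of RNA quality in this imbalance was not tested.

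**Figure D2:**
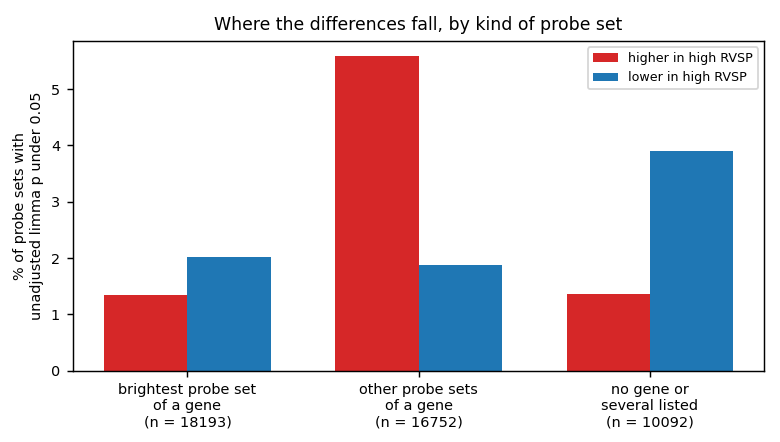
Percentage of probe sets with an unadjusted limma p under 0.05 in R899X high RVSP against control, by kind of probe set, higher in red and lower in blue. Among the other probe sets of a gene 5.58% were higher and 1.88% lower, against 1.35% and 2.02% of the brightest probe sets.

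Because single probe sets of a gene often disagreed, genes were also taken for which at least 2 probe sets had an unadjusted p under 0.05 in one direction and none went the other way. Of 9010 genes with 2 or more probe sets, 44 met this on the higher side (0.488%) and 11 on the lower side (0.122%); for 38.1% of the 9010 all probe sets had one sign. Overlapping probe sets read the same transcript in the same RNA, so their agreement is not replication over mice.

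Itgb6, the beta subunit of the epithelial integrin that activates latent TGF-beta, led the higher genes. It gave 107 and 233 in the controls and 558 and 385 in the high RVSP mice on its brighter probe set (1.45 ± 0.48), and 1.39 ± 0.41 on the other. Control 1 was lowest on both, and of the R899X normal RVSP mice, at 189 and 511, 1 lay between the controls and the other between the high RVSP mice. Thbs1, thrombospondin 1, a matrix protein that also activates latent TGF-beta, gave 240.4 and 362 in the controls and 625 and 597 in the high RVSP mice on one probe set (1.01 ± 0.25). Its other probe set was higher by 0.93 ± 0.35, where control 2 (790.5) came nearest to the second high RVSP mouse (997). Depp1, a small protein induced by fasting and by FoxO factors, was higher on both of its probe sets. It gave 2714 and 3838 in the controls against 6235 and 5718 in the high RVSP mice (0.88 ± 0.20), with 0.91 ± 0.18 on its second probe set. The R899X normal RVSP mice, 6528 and 5279, lay with the high RVSP mice and not with the controls. Rgs18, a regulator of G protein signalling of platelets, gave 553 and 722 in the controls and 1151 and 1338 in the high RVSP mice (0.96 ± 0.23; other probe set 0.70 ± 0.23). Both R899X normal RVSP mice lay below both high RVSP mice on the brighter probe set. The other 6 were Rnf112 (median over its probe sets 0.96), the tau tubulin kinase Ttbk2 (0.96), the microtubule-bound Mid2 (0.95), the RNA decay factor Zfp36l2 (0.95), the lipid kinase Pik3c2a (0.84) and the B cell adaptor Dapp1 (0.83). For Ttbk2, Zfp36l2 and Pik3c2a the brightest probe set differed by 0.00, 0.09 and 0.12, and the larger differences came from dimmer ones.

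On the lower side Efhd2, a calcium-binding protein, gave 11805 and 6851 in the controls and 5158 and 2093 in the high RVSP mice (-1.45 ± 0.46; other probe set -0.70 ± 0.27). Each group was itself spread, and the R899X normal RVSP mice, 4288 and 7878, spanned the gap. Rasgef1a, a Ras exchange factor, gave 1349 and 1421 in the controls and 872 and 646 in the high RVSP mice (-0.87 ± 0.19; other probe set -0.77 ± 0.27). Vegfd, a growth factor of lymphatic and blood vessels, gave 5407 and 3313 in the controls and 2755 and 2580.5 in the high RVSP mice (-0.66 ± 0.23). Its other probe sets gave -0.68 ± 0.26 and -0.05 ± 0.24, and control 1 was the highest of the 4 mice on all 3. Kif3a, a motor of ciliary transport, was lower on all 4 of its probe sets, by -0.36 to -0.83. Mapt, the microtubule protein tau, had its 4 probe sets lower by -0.23 to -0.65, each with both high RVSP mice below both controls. The others were the cardiac troponin Tnnt2 (median -0.78), Coq8a (-0.70) of coenzyme Q synthesis, the cell cycle ligase subunit Anapc11 (-0.70), the Wnt pathway factor Tcf7l1 (-0.57) and the protocadherin Pcdh10 (-0.37). For Anapc11 the brightest probe set differed by -0.03, and the larger differences came from dimmer ones. Pcdh10 was dim, with 58.5 and 30.2 in the controls and 6.19 and 5.65 in the high RVSP mice on its brightest probe set. Of its 6 probe sets 2 had an unadjusted limma p under 0.05.

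Cardiac muscle markers were lower in the high RVSP mice as a list. In mice the walls of the larger pulmonary veins carry a sleeve of heart muscle, so whole lung RNA holds cardiac transcripts. Of 31 measured markers 28 were lower and 3 higher, with a median difference of -0.48, while 54.8% of 18193 genes were lower, with a median of -0.03. Both high RVSP mice lay below both controls for 18 markers and above both for 0, against 18.6% and 13.9% of all genes. At an unadjusted p under 0.05, 11 markers were lower and 0 higher, against 2.02% and 1.35% of all genes (3.37% together). Myoglobin (Mb) gave 636 and 662 in the controls and 440.1 and 317 in the high RVSP mice (-0.77 ± 0.20). Mitochondrial creatine kinase (Ckmt2) gave 1099 and 944 in the controls and 695 and 448 in the high RVSP mice (-0.85 ± 0.27). For both genes the groups were apart and the second high RVSP mouse was lowest. The heavy chain of cardiac myosin Myh6 gave 7299.9 and 5718 in the controls but 5250.2 and 2053 in the high RVSP mice (-0.97 ± 0.39). The atrial light chain Myl7 gave 4283 and 4289.6 in the controls and 3935 and 1400.1 in the high RVSP mice (-0.86 ± 0.42). The first high RVSP mouse was close to the controls on both, and the second was far below. Second probe sets of Mb and Myh6 differed by 0.28 and 0.15, the opposite way. Nppb, a natriuretic peptide that cardiac muscle makes under stretch, had the largest difference of the list, with 71.9 and 71.4 in the controls and 8.70 and 39.2 in the high RVSP mice (-1.25 ± 0.46); here the R899X normal RVSP mice were low as well, at 37.8 and 23.1. The related atrial peptide Nppa (0.07 ± 0.36), the ventricular light chain Myl2 (0.05 ± 0.33) and the stretch-responsive Ankrd1 (0.01 ± 0.17) were the 3 higher members.

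The second high RVSP mouse carried most of this difference. It was the lowest of the 4 mice for 26 of the 31 markers, and the summed intensity of the list was 40208 and 38273 in the controls, 34585 in the first high RVSP mouse and 19248 in the second. Without that mouse the median was -0.17, with 24 markers lower, against 54.3% of all genes in that setting. Of the 31 markers 18 then lay below both controls, against 6117 of 18193 genes. Without the first high RVSP mouse the median was -0.78, and 30 markers were lower, against 53.0% of all genes in that setting. With the mean of all probe sets of a gene the cardiac median over all mice was -0.32. Smooth muscle contractile genes did not share the direction, with a median of -0.03 over 19 genes, and skeletal muscle markers had a median of 0.02 over 14.

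Platelet and megakaryocyte markers were higher. Of 16 measured markers 15 were higher (45.2% of all genes), with a median of 0.41. Both high RVSP mice lay above both controls for 9 and below both for 0, against 13.9% and 18.6% of all genes. At an unadjusted p under 0.05 in limma 5 markers were higher, against 1.35% of all genes. Besides Rgs18 these were Itga2b, Pf4, Gp9 and Clec1b. Pf4, the platelet factor 4 chemokine, gave 968 and 1082 in the controls and 1261 and 1672 in the high RVSP mice (0.50 ± 0.18). Itga2b, the fibrinogen receptor subunit of platelets, gave 365 and 406 in the controls and 534 and 562 in the high RVSP mice (0.49 ± 0.18). Gp9, part of the von Willebrand factor receptor, gave 142 and 125 in the controls and 194 and 276 in the high RVSP mice (0.74 ± 0.27). In each the groups were apart and the second high RVSP mouse was highest, as it was for 15 of the 16 markers. Without that mouse the median was 0.26 and 13 of 16 were higher, against 45.7% of all genes in that setting. The median was 0.56 without the first high RVSP mouse, 0.34 without control 1 and 0.53 without control 2. The lower member was Mmrn1 (-0.04 ± 0.19), which lymphatic endothelium also expresses. Genes of red cells and reticulocytes, also blood cells, were highest in the second high RVSP mouse too, but did not separate the groups: their mean deviation over 13 genes was -0.37 and 0.41 in the controls and -0.58 and 0.54 in the high RVSP mice, a split within each group. The part of blood left in the lung in the platelet difference was not tested.

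**Figure D3:**
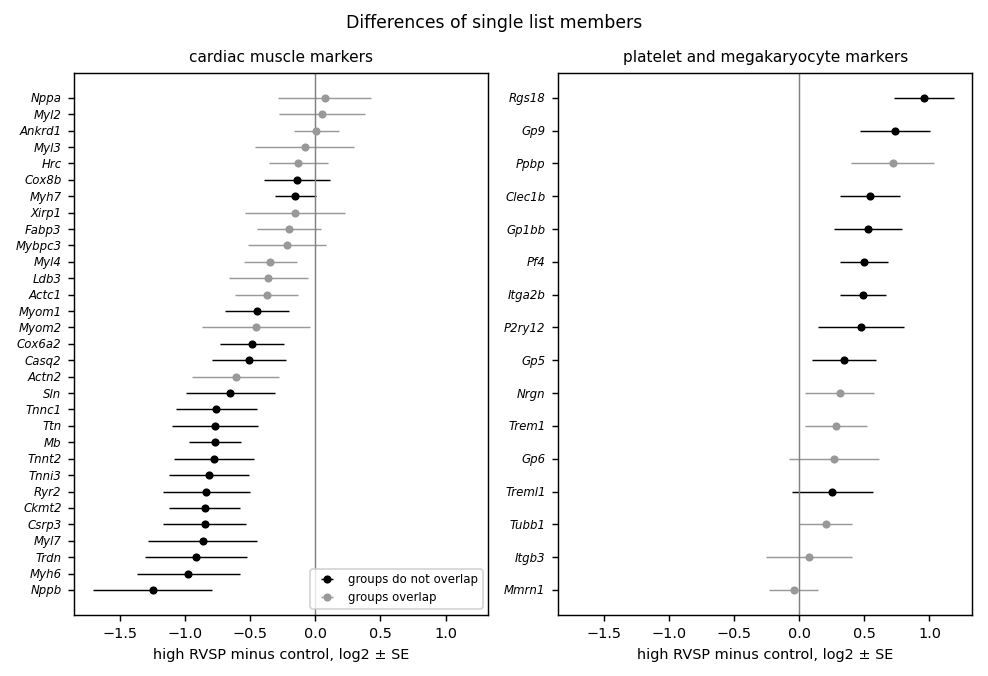
Differences of log2(intensity + 16), R899X high RVSP minus control, with the limma SE, for 31 cardiac muscle markers and 16 platelet and megakaryocyte markers; black points are genes whose groups do not overlap. All but 3 cardiac markers lie below 0 and all but 1 platelet marker above it.

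Immediate early genes, which cells induce within minutes of a stimulus or of tissue handling, were mostly higher. Of 34 genes 27 were higher, 16 lay above both controls in both high RVSP mice and 1 below, and 2 were higher at an unadjusted p under 0.05, against 13.9%, 18.6% and 1.35% of all genes. The median was 0.36, and 0.22 with the mean of all probe sets of a gene. Atf3, a stress-induced factor, gave 323 and 349 in the controls and 622 and 575 in the high RVSP mice (0.81 ± 0.31). Fos gave 5218 and 6615 in the controls and 10272 and 8075 in the high RVSP mice (0.63 ± 0.34). The R899X normal RVSP mice were split on both, with 306 and 637 for Atf3 and 4732 and 10319 for Fos. Jun (0.53 ± 0.26) and the RNA decay factor Zfp36 (0.61 ± 0.27) were higher with groups apart, and Arc (1.23 ± 0.41), a synaptic gene, was higher from very low values. The flow-responsive endothelial factor Klf2 was the separated gene on the lower side, with 4810.1 and 4745 in the controls and 4153 and 3566 in the high RVSP mice (-0.31 ± 0.15). Single mice carried part of this: control 1 was the lowest for 26 of the 34 genes and the first high RVSP mouse the highest for 22. Without the first high RVSP mouse the median was 0.12, with 23 of 34 higher, and without control 1 it was 0.25, with 24 higher.

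Interferon-stimulated genes were lower in the high RVSP mice by the group means, but this rested on control 1. Of 38 genes 30 were lower, 13 lay below both controls and 1 above, and 3 were lower at an unadjusted p under 0.05, against 18.6%, 13.9% and 2.02% of all genes. The median was -0.28. The 6 largest differences were those of interferon-induced GTPases of cell-autonomous defence: Igtp, Iigp1, Irgm2, Gbp6, Gbp7 and Irgm1. Igtp gave 5964 and 1085 in the controls and 868 and 1063 in the high RVSP mice (-1.39 ± 0.65). Irgm2 gave 6643 and 1434 in the controls and 1285 and 1381 in the high RVSP mice (-1.20 ± 0.59). Gbp3 gave 1888 and 719 in the controls and 599 and 717 in the high RVSP mice (-0.82 ± 0.43). In all 3 control 2 lay close to the high RVSP mice and control 1 far above, and the R899X normal RVSP mice lay between, at 2210.0 and 3676 for Igtp. Control 1 was the highest for 25 of the 38 genes. Without it the median was -0.05 and 22 of 38 were lower, against 51.3% of all genes in that setting. Without control 2 the median was -0.49 and 31 of 38 were lower, against a median of -0.056 and 56.7% of all genes. The genes with an unadjusted p under 0.05 on all mice were Oas2 (-0.83 ± 0.30), Psmb9 (-0.46 ± 0.18) of the immunoproteasome and Irf1 (-0.39 ± 0.17), and the type I interferon targets Ifit2 (-0.05 ± 0.16) and Xaf1 (-0.01 ± 0.16) were level.

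Promoters of this list were searched for the interferon-stimulated response element, spelled here as GAAA, any 2 bases and GAAA again, on either strand, in RefSeq windows of mouse assembly GRCm38.p6 that reach from 250 bases before to 50 after a start. Of 33 windows of 28 list genes 18 (54.5%, 17 genes) held it, against 1131 of all 32851 windows (3.44%). The windows of Igtp, Irgm2 and Gbp3, the separated GTPases highest in control 1, are shown with the match in capitals.
Igtp, chr11:58199306-58199605, plus strand: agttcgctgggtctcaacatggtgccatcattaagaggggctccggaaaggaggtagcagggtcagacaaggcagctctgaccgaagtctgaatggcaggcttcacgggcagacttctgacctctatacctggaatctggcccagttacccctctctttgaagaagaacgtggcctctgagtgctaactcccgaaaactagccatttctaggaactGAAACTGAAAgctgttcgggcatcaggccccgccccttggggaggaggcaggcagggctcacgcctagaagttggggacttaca
Irgm2, chr11:58214727-58215026, plus strand: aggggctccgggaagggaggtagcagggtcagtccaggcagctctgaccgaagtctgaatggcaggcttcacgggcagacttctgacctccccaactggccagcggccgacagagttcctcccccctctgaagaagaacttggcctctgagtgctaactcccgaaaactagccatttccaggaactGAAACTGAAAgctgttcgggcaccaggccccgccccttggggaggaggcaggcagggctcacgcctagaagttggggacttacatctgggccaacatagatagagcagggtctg
Gbp3, chr3:142559794-142560093, plus strand: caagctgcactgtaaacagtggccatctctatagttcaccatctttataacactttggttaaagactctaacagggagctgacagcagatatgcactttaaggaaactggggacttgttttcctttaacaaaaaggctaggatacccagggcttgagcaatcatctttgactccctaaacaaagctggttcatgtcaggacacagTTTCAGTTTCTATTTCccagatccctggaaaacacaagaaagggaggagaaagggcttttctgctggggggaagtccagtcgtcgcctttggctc
The match begins 34 bases before the start in Igtp and 64 bases before it in Irgm2, and Gbp3 holds 2 overlapping matches on the opposite strand, at 45 and 39 bases before it. A match is a description of the sequence and not of a factor bound there.

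The BMP pathway, in which the transgene acts, showed small differences. Of 11 receptors and coreceptors 3 were higher and 8 lower, with a median of -0.13 and 0 with an unadjusted p under 0.05 in limma. Without control 2 the median was 0.11, with 6 higher and 5 lower, and with the mean of all probe sets of a gene it was -0.018. Acvrl1, the endothelial type I receptor mutated in hereditary haemorrhagic telangiectasia, gave 3094 and 2947 in the controls and 3498 and 4088 in the high RVSP mice (0.32 ± 0.15). The groups were apart, and the R899X normal RVSP mice, 3680.4 and 3899, lay with the high RVSP mice, but the other probe set differed by -0.05. The type I receptor Bmpr1a (-0.15 ± 0.16) and the coreceptor endoglin, Eng (-0.02 ± 0.18), were near 0. Of 20 ligands and modulators 12 were higher and 8 lower (median 0.07). The median was -0.03 without control 1 and -0.04 without the second high RVSP mouse. At an unadjusted p under 0.05 in limma 1 was higher and 1 lower, against 1.35% and 2.02% of all genes. Gdf10, a ligand of this superfamily also called Bmp3b, gave 132 and 142 in the controls and 259.6 and 215 in the high RVSP mice (0.72 ± 0.25). Bmp1, a protease that cleaves procollagen and the antagonist chordin, gave 324 and 565 in the controls and 261 and 268 in the high RVSP mice (-0.66 ± 0.27), and its 2 other probe sets differed by -0.64 and 0.32. Both genes had groups apart, with the high RVSP mice close together for Bmp1. The ligand Bmp4 was level, and the antagonists Grem1 (0.64 ± 0.51) and Chrdl1 (-0.28 ± 0.15) went different ways.

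Among 11 Smads and their regulators 2 were higher and 9 lower, with a median of -0.05 (0.16 with the mean of all probe sets of a gene) and 0 with an unadjusted p under 0.05. Smad5 gave 1103 and 1407 in the controls and 1100.5 and 915 in the high RVSP mice (-0.31 ± 0.18), with the nearest mice almost level, and its 2 other probe sets differed by 0.34 and 0.70. Smad1 (-0.03 ± 0.17) and the common Smad4 (-0.04 ± 0.16) were near 0. Of 17 BMP target genes 11 were higher and 6 lower, with a median of 0.06 that became -0.10 without control 1. Id1 gave 1170.1 and 2243 in the controls and 2355 and 1855 in the high RVSP mice (0.36 ± 0.29), and Id3 differed by 0.07 ± 0.22. For Id1 control 1 was the lowest of the 6 mice. Both high RVSP mice lay above both controls for 1 target gene and below both for 3, against 13.9% and 18.6% of all genes. At an unadjusted p under 0.05 in limma 2 target genes, both transcription factors, were lower and 0 higher, against 2.02% and 1.35% of all genes. Gata3 gave 379 and 489 in the controls and 184 and 194 in the high RVSP mice (-1.12 ± 0.39), with groups apart and 1 R899X normal RVSP mouse near each, at 438 and 172. Msx2 was dim, with 45.9 and 31.9 in the controls and 2.45 and 18.2 in the high RVSP mice (-1.11 ± 0.43), and its other probe set differed by 0.01. Gata3 is also a factor of T helper and innate lymphoid cells. T and NK cell markers had a median of 0.18 over 23 genes, which was -0.024 without control 2.

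**Figure D4:**
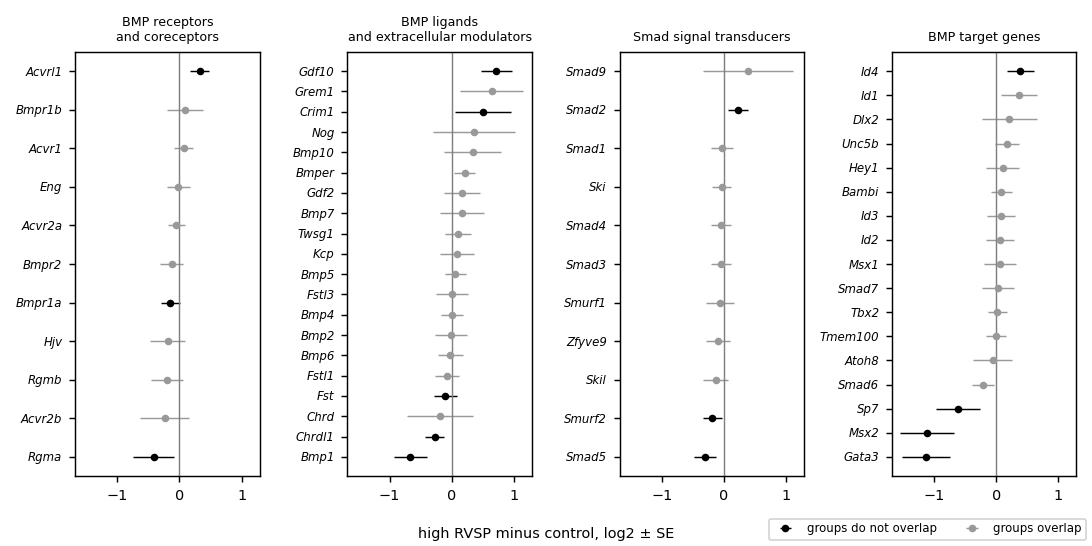
Differences of log2(intensity + 16), R899X high RVSP minus control, with the limma SE, for 11 BMP receptors and coreceptors, 20 ligands and modulators, 11 Smads and regulators and 17 target genes; black points are genes whose groups do not overlap. Gata3 and Msx2 lie lowest at -1.12 and -1.11, and Gdf10 lies highest at 0.72.

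Genes of vascular tone moved both ways. Of 31 genes of the endothelin, nitric oxide, prostacyclin and angiotensin pathways 18 were higher and 13 lower (median 0.04, or 0.15 with the mean of all probe sets of a gene). Adm, the vasodilator adrenomedullin, gave 249 and 281 in the controls and 154 and 176 in the high RVSP mice (-0.63 ± 0.23), while its other probe set differed by 0.03. Pde3a, a phosphodiesterase that breaks down cyclic AMP in smooth muscle, gave 106 and 249.7 in the controls and 381 and 259.8 in the high RVSP mice (0.88 ± 0.38). The lower high RVSP mouse and control 2 were nearly level on Pde3a, and its other probe sets differed by -0.48 and 1.14. The thromboxane receptor Tbxa2r (0.55 ± 0.24) and the VIP receptor Vipr2 (0.62 ± 0.34) were higher with groups apart, and the groups of the constrictor endothelin, Edn1 (0.07 ± 0.18), overlapped. Endothelial nitric oxide synthase, Nos3 (0.20 ± 0.29), and prostacyclin synthase, Ptgis (-0.10 ± 0.15), had groups apart but differences below their SE. Of 9 serotonin pathway genes 4 lay below both controls and 0 above, against 18.6% and 13.9% of all genes (median -0.22, and -0.081 without the second high RVSP mouse). Among them were the receptor Htr2b (-0.71 ± 0.36) and the transporter Slc6a4 (-0.22 ± 0.23), and none of the 9 had an unadjusted p under 0.05.

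Smooth muscle contractile genes gave 8 higher and 11 lower of 19. Of these 4 lay above both controls and 0 below, against 13.9% and 18.6% of all genes, and the median of -0.03 ranged from -0.10 to 0.11 without 1 mouse. Myl9, the regulatory light chain, gave 2816 and 3127 in the controls and 3875 and 3969 in the high RVSP mice (0.40 ± 0.17). Smooth muscle actin, Acta2, gave 6972 and 7698 in the controls and 8524 and 8343 in the high RVSP mice (0.20 ± 0.15). The R899X normal RVSP mice were also above the controls, at 4822 and 3764 for Myl9 and 9730.1 and 8824 for Acta2. Lung endothelial markers were balanced only with all mice and brightest probe sets, 12 higher and 13 lower of 25 (median -0.01). Both high RVSP mice lay above both controls for 6 of the 25 and below both for 2, against 13.9% and 18.6% of all genes. At an unadjusted p under 0.05 in limma 3 were higher, against 1.35% of all genes. The median was 0.12 without control 2, with 20 higher, and 0.08 without the second high RVSP mouse, with 16 higher. It was -0.07 without the first, and 0.10 with the mean of all probe sets of a gene. Pecam1, the junction protein CD31, gave 3293 and 4531 in the controls and 6112 and 5590.4 in the high RVSP mice (0.60 ± 0.18). Endomucin, Emcn, a sialomucin of capillaries and veins, gave 1619.7 and 1628 in the controls and 2479.6 and 2256 in the high RVSP mice (0.54 ± 0.21). Gja5, the arterial gap junction protein connexin 40, was dim, with 4.30 and 19.7 in the controls and 85.2 and 69.5 in the high RVSP mice (1.79 ± 0.40). All 3 genes have 1 probe set, their groups were apart, and the R899X normal RVSP mice lay above the controls on each. Vwf went the other way (-0.37 ± 0.26), while Cdh5 gave -0.08 ± 0.25 and the arterial factor Sox17 0.18 ± 0.18. Among 12 genes tied to pulmonary hypertension risk outside BMP signalling, Ggcx, the vitamin K carboxylase, was higher (0.76 ± 0.30) and Tet2, a DNA demethylase, lower (-0.62 ± 0.25), each with a second probe set of the same sign.

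Mesothelial markers were higher for 7 of 9 genes (median 0.23), with 5 above both controls and 0 below, against 13.9% and 18.6% of all genes. Lrrn4 gave 426 and 409 in the controls and 548 and 659 in the high RVSP mice (0.51 ± 0.19), and Upk3b gave 0.57 ± 0.23 with 0.64 on its second probe set. Fibroblast markers were higher for 13 of 16 genes (median 0.14, but 0.069 without control 2 and 0.080 without the second high RVSP mouse). Decorin, Dcn, gave 2856 and 2789.8 in the controls and 3599.5 and 3652 in the high RVSP mice (0.36 ± 0.14), with the R899X normal RVSP mice higher still at 4136 and 3824. Ciliated cell markers were higher for 20 of 24 genes (median 0.21), but control 1 was the lowest of the 4 mice for 20 of the 24 and the median without it was -0.01. Of 18 markers of B and plasma cells 16 were higher (median 0.18), led by the antigen receptor component Cd79a, with 543 and 429 in the controls and 958 and 657 in the high RVSP mice (0.70 ± 0.26). The first high RVSP mouse was the highest for 14 of these and control 2 the lowest for 12, and the median was 0.02 without control 2 and 0.04 without the first high RVSP mouse. Markers of alveolar type 2 (median -0.07), alveolar type 1 (-0.06), macrophage (-0.01) and pericyte cells (0.03) lay near the median of all genes by their brightest probe sets with all mice. With the mean of all probe sets of a gene the alveolar type 1 median was 0.24, and without the first high RVSP mouse the macrophage median was 0.24. Without control 1 the medians of alveolar type 2 and type 1 cells were 0.055 and 0.080 and that of pericytes -0.12.

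**Figure D5:**
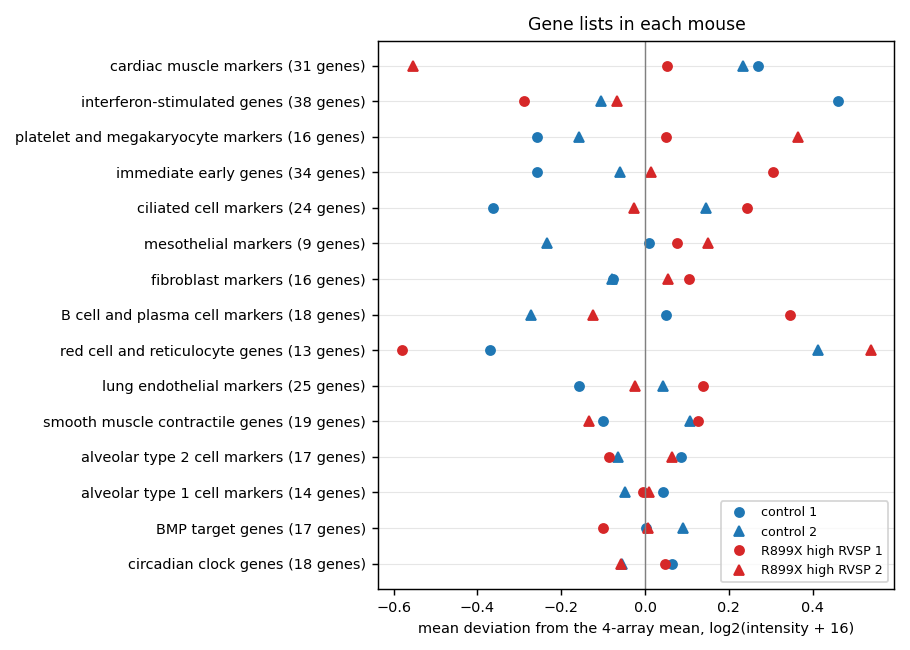
Mean deviation of each list from its 4-array mean, on log2(intensity + 16), with 1 point per mouse: control (blue) and R899X high RVSP (red), replicate 1 as a circle and replicate 2 as a triangle. The second high RVSP mouse lies at -0.55 for cardiac muscle markers, control 1 at 0.46 for interferon-stimulated genes, and the red cell genes split within both groups.

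Among circadian clock genes 10 were higher and 8 lower of 18 (median 0.10), with differences from -1.38 to 0.53. Both high RVSP mice lay above both controls for 4 and below both for 6, against 13.9% and 18.6% of all genes. At an unadjusted p under 0.05 in limma 3 were lower and 0 higher, against 2.02% and 1.35% of all genes. The median was -0.10 without control 2, and without control 1 9 genes were higher and 9 lower. Cry1, a repressor of the clock, gave 1205 and 1103 in the controls and 737 and 949 in the high RVSP mice (-0.46 ± 0.17). Rora, a nuclear receptor that activates Arntl, gave 2066 and 1744 in the controls and 1267 and 1367 in the high RVSP mice (-0.52 ± 0.17), while 6 of its 8 other probe sets were higher. The repressor Nr1d1 was higher with groups apart, 813 and 534 in the controls and 977 and 874 in the high RVSP mice (0.48 ± 0.22), as was Arntl (0.39 ± 0.24). In the retinoic acid list of 18 genes the degrading enzyme Cyp26b1 (0.72 ± 0.26) and the receptor Rarb (0.54 ± 0.22) were higher. For Cyp26b1 the R899X normal RVSP mice, 1111 and 1033, lay above the high RVSP mice at 815 and 659.9. Glucocorticoid-responsive genes had a median of 0.24 over 19 genes, led by Ddit4, an inhibitor of the mTOR kinase (0.75 ± 0.26). That median was 0.06 without control 1 and 0.07 without the first high RVSP mouse.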

How the data were processed

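Per the labels, each array holds RNA of 1 mouse's lung, labelled by the Affymetrix manual. The authors deposited linear intensities for 45101 probe sets. Their summarisation and scaling are not given in the sources used here; trimmed by 2%, each array's mean was 500.0. After removal of 64 control probe sets, log2(intensity + 16) was computed for 45037. The number of arrays limits the precision. The platform table gave 1 gene symbol for 34945 probe sets, several for 932 and none listed for 9160; 34754 matched the RefSeq table of GRCm38.p6 by gene identifier.

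A linear model with a mean for each group was fitted in limma 3.58.1 (R 4.3.3) over the 6 arrays, with an intensity trend, 3 residual and 5.08 prior degrees of freedom. High RVSP minus control was tested two-sided, with Benjamini-Hochberg adjustment over 45037 probe sets. Replicate numbers follow accession order only. P-values rest on the spread between individual mice, pooled over all groups, the R899X normal RVSP mice included. In limma that spread is drawn towards the intensity trend over all probe sets. The fit was tested on simulated data. In lists, a gene's value is that of its brightest probe set by the 6-array mean (18193 genes).

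Named genes follow rules. In each direction they are the 12 genes of largest difference whose groups do not overlap, with a mean of at least 100 in the higher group and an unadjusted p under 0.01; the 10 genes of largest median difference with at least 2 probe sets at p under 0.05 and none of opposite sign; Bmpr2, Tagln and Xist; and from each of 49 gene lists, members with non-overlapping groups and the smallest p, or those the account of a pathway turns on. Clone and model names were left out. The comparison, the members and the lists were chosen with earlier results of these data known, so the lists are described by counts and medians with no test. Sets of probe sets by kind were compared after the values were seen. Alternatives were other pseudocounts (1 and 64), quantile normalization, equal medians, a filter on the lower 40% of probe sets, 4 arrays only, an ordinary linear model, the mean of all probe sets of a gene, and leaving out each mouse. Tables and plots were made with Python 3.11.15, pandas 2.3.3 and matplotlib 3.10.9.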

Additional observations from a re-analysis of the deposited data

How the results depend on the processing

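Under all 11 alternatives 0 probe sets had a limma or ordinary linear model adjusted p under 0.05; the smallest adjusted p was 0.0624 without control 2, 0.0912 with only the 4 arrays in the fit and at least 0.528 otherwise. The number at an unadjusted p under 0.05 was 2393, and it was 1228 without the second high RVSP mouse, 4584 without control 2 and 1506 of 27022 with the lower 40% of probe sets left out. Leaving out 1 mouse, 13564 to 16526 of 45037 probe sets were higher with groups that did not overlap, and 14129 to 19157 were lower. A group of 1 mouse overlaps less often. With the lower 40% left out, 5175 of 27022 probe sets were higher in this way and 4921 lower. The counts with all probe sets were 7746 and 8300 of 45037. List medians without 1 mouse ranged from -0.78 to -0.17 for cardiac muscle markers, 0.26 to 0.56 for platelet markers, 0.12 to 0.42 for immediate early genes, -0.49 to -0.05 for interferon-stimulated genes, and -0.10 to 0.083 for BMP target genes. Over the list medians, 370 of 423 settings moved by less than the list's own spread between replicates. Of the 53 that moved more, 12 came from settings other than leaving out a mouse. A list that varied between mice could thus turn sign and not count as moved. The red cell median, 0.08 with all mice, ranged from -0.51 to 0.62 without 1 mouse, within a spread of 0.68. The 370 are therefore not a measure of stability over mice. No paired analysis was made because each array is of a separate mouse and the labels name no pairing. The replicate numbers used here pair no mice. With 2 mice a group, changes under about 0.75 on the log2 scale could not be shown for a typical probe set even before adjustment. Adjustment over 45037 probe sets raises that limit. In simulated arrays with spreads drawn from the fitted model, 5.2% of 2-fold and 47.6% of 4-fold changes had a limma adjusted p under 0.05. Finding 0 probe sets therefore does not show that changes of that size were absent.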
